A study of Mus musculus with 2 samples.

Results

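Genes used by B cell precursors were read in 1 allograft and 1 autograft sample of mouse femur, each measured as total RNA on 1 oligonucleotide array. Not all of these genes are confined to such precursors. The group consists of 10 genes chosen by name for their roles. Vpreb1 and Igll1 of the surrogate light chain were listed with the related Vpreb3, and Rag1, Rag2 and Dntt for recombination. The others were Cd79a and Cd79b of B cell receptor signalling and the lineage factors Pax5 and Ebf1. The 10 genes were represented by 15 probe sets, sets of short oligonucleotides whose signals are combined into 1 intensity for a transcript. These were out of 20380 probe sets with a single gene symbol that stand for 12393 genes. The samples are labelled as bone from C57BL/6 femur, 1 as an allograft, tissue moved between animals of a species, and 1 as an autograft, tissue moved within an animal. The labels give no age, sex, treatment, time after grafting or number of animals for either sample, and do not say whether C57BL/6 was donor, host or both.

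B cells are made throughout life in the marrow of bones such as the femur. Progenitors that express Ebf1 and then Pax5 commit to the B lineage and cut and rejoin their immunoglobulin genes with the RAG recombinase, while terminal transferase, the product of Dntt, adds bases at the joints. The first rearranged heavy chain is carried to the surface with a surrogate light chain, made of a Vpreb protein and the Igll1 product lambda5, and with the signalling pair CD79A and CD79B, and this pre-B cell receptor drives the next step before ordinary light chains replace the surrogate.

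Vpreb1 and Igll1, whose products join to form the surrogate light chain, are neighbours on chromosome 16, with 0 protein-coding genes starting between them in the RefSeq annotation of GRCm38.p6. Rag1 and Rag2 are neighbours on chromosome 2, also with 0 genes between. RefSeq promoter windows of build GRCm38.p6 were found for 9 of the 10 genes, not for Cd79b, and Ebf1 had windows for more than 1 start, which gave 10 windows. The 250 bases upstream of each annotated start were searched for CAGGTG, an E-box bound by E proteins such as the Tcf3 product, on either strand; the reverse strand reads CACCTG. It was present in 4 of the 10 windows (Vpreb1, Igll1, Rag1 and Cd79a) and in 17.2% of the 32851 windows in the table. The windows of 3 genes are shown because Vpreb1 and Igll1 encode partners and Cd79a encodes a partner in the signalling pair whose ratios differed most, as described below. They read 5′ to 3′ in the direction of the gene, with the E-box in capitals.

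Vpreb1: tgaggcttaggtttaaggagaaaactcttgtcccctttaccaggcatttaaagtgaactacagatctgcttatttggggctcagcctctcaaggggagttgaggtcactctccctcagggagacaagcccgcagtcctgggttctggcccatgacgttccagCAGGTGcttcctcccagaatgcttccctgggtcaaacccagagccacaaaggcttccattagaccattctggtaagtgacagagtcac

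Igll1: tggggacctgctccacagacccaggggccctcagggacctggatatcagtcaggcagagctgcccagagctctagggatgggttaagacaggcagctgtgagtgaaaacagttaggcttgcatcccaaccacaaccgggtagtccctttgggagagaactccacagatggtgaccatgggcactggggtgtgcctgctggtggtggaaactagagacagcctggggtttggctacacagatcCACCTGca

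Cd79a: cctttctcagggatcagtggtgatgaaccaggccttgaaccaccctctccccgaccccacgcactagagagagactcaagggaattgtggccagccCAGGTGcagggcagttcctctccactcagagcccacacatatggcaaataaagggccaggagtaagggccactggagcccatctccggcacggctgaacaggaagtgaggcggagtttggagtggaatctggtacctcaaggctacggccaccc

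These windows lie at chr16:16869256-16869505 (minus strand), chr16:16863986-16864235 (minus strand) and chr7:24897247-24897496 (plus strand). The E-box began 88 bases upstream of the start of Vpreb1, 8 bases upstream of that of Igll1, where it was on the reverse strand, and 154 bases upstream of that of Cd79a. Of these genes, Vpreb1 and Igll1 had intensities that were higher in the allograft sample and Cd79a an intensity that was higher in the autograft sample. A match to these letters is a description of the sequence and does not show that a factor was bound.

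Of the 10 genes, 7 exceeded the floor on both arrays and 3, Rag1, Rag2 and Pax5, were below it on both. Of all 12393 genes, 7101 exceeded the floor on both arrays and 7833 on at least 1. The floor was an intensity of 175, the median of all non-control values, and no ratio is given where both arrays were below it. Among the 7, 4 had a higher intensity in the allograft and 3 in the autograft sample. At a 2-fold difference 0 of the 7 were apart, against 1.62% of the 7833 genes above the floor on at least 1 array. At 1.5-fold 1 of the 7 was apart, Cd79b, against 10.6% of all genes. With 1 array for each graft type no test could be made, and no value has a replicate error. The members' counts at 2-fold and 1.5-fold were no further from the background shares than a single gene. Because bulk tissue was measured, fewer cells of a type and less RNA in each cell cannot be told apart.

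**Figure D1:**
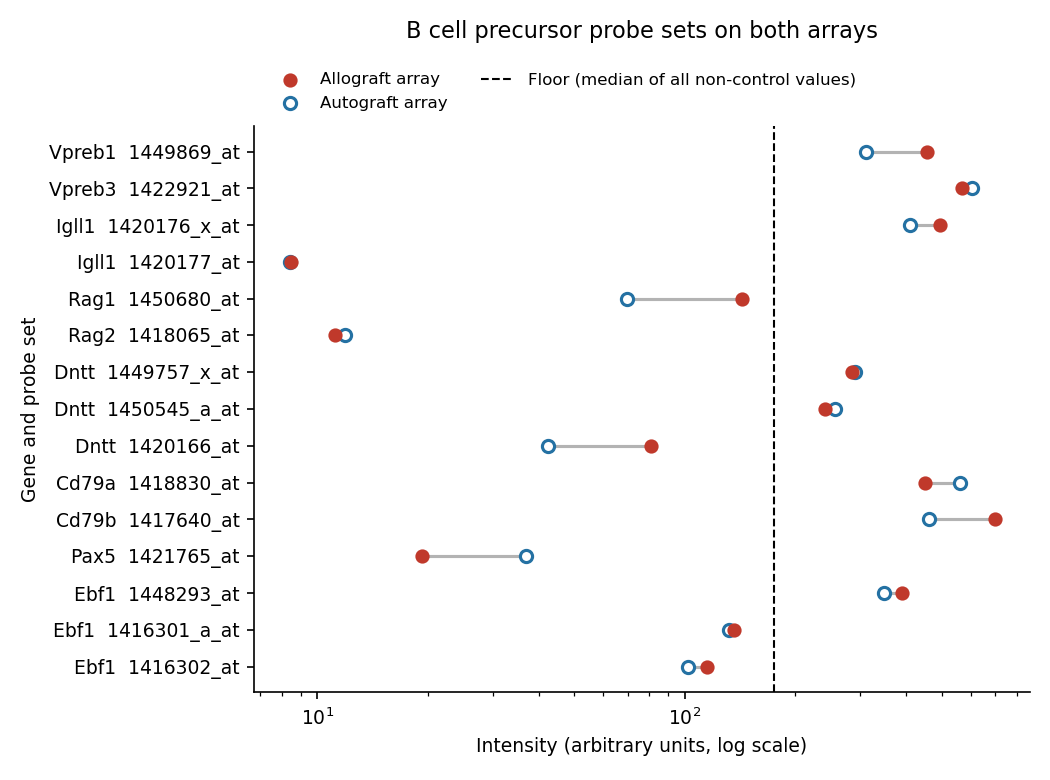
Intensity (arbitrary units, log axis) of the 15 probe sets of the B cell precursor genes on the allograft array (filled) and the autograft array (open), with a grey line joining the values of 1 probe set and a dashed line at the floor of 175. On both arrays 8 probe sets lie to the right of the floor and 7 to its left, and the longest lines to the right belong to Cd79b and Vpreb1.

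All 3 genes listed under the surrogate light chain, Vpreb1, Igll1 and the related Vpreb3, exceeded the floor in both samples. Vpreb1, the part of the surrogate that stands in for a light chain variable domain, read 455 in the allograft and 310.3 in the autograft sample. Its log2 ratio of allograft over autograft was 0.55, a 1.47-fold difference. Igll1, which encodes the lambda5 part that resembles a constant domain, read 495 against 409.6 by its brighter probe set, a log2 ratio of 0.27. Both partners were therefore brighter on the allograft array, by less than 1.5-fold. The Igll1 probe set carries the suffix for oligonucleotides that can match other transcripts, and the other probe set of Igll1 read 8.5 against 8.4, below the floor. A probe set that matches Vpreb2 as well as Vpreb1, and so belongs to neither alone, read 172 against 189.9, below the floor in the allograft and above it in the autograft sample. It did not share the direction of the probe set for Vpreb1 alone. Vpreb3, a related protein that binds immunoglobulin chains inside the cell, read 568 against 604, a log2 ratio of -0.09, and its values differed by 1.06-fold.

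Of the recombination genes, 2 of 3 were below the floor on both arrays. Rag1, the catalytic subunit of the recombinase, read 143 in the allograft and 69.6 in the autograft sample. Rag2, its partner, read 11.2 against 11.9. The allograft value of Rag1 exceeded the autograft value, but both lay under the floor. With the floor lowered to the 25th percentile of intensity, 50.6, the log2 ratio of Rag1 was 1.04. It was then the only 1 of 8 members above that floor to be past 2-fold, against 3.62% of 10665 genes. Dntt, the terminal transferase, read 285 against 290.5 by the probe set used, a log2 ratio of -0.03, and 241 against 256 by the next, a log2 ratio of -0.08. Its remaining probe set read 81.0 against 42.3, below the floor. The pair of Dntt probe sets above the floor gave nearly equal readings on both arrays, the brighter of them with the suffix for shared oligonucleotides. The sign of the Dntt ratio changed in 4 of 8 alternative settings, in which it lay between -0.08 and 0.08.

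Cd79a and Cd79b, whose products form a single dimer that signals for the pre-B and the B cell receptor, stood at opposite ends of the group. Cd79b read 696 in the allograft and 461 in the autograft sample, a log2 ratio of 0.60 and a 1.51-fold difference. Cd79a read 449.8 against 562, a log2 ratio of -0.32, so that its autograft value was 1.25-fold the allograft value. The log2 ratios of these partners were 0.92 apart, which is a 1.89-fold difference between the ratios. As a yardstick from the same arrays, the ratios of the brightest and next probe set of a gene differed with an SD of 0.43 over 1923 genes with both above the floor on both arrays, and 4.21% of those genes had probe sets at least 0.92 apart. Among the 867 genes of these whose brighter probe set averaged below 1000, the SD was 0.45 and the share was 4.61%. Cd79a and Cd79b had the lowest and highest ratios of the group, so their distance is the widest in it. The yardstick compares probe sets of 1 gene, so its shares are not probabilities for a distance between different genes. By the same yardstick over the 1923 genes, Vpreb1 and Igll1 were 0.28 apart, with a share of 47.8%. Vpreb1 and Vpreb3 were 0.64 apart, with a share of 13.0%. Each of Cd79a and Cd79b was read by 1 probe set, so neither ratio could be checked within its gene. With the floor at the 75th percentile, 561.5, which lies above the dimmer reading of each gene, the distance between them was 0.31.

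Of the lineage factors, Ebf1 was measured and Pax5 was below the floor. Ebf1, which opens and activates B lineage genes in progenitors, read 389 in the allograft and 348 in the autograft sample, a log2 ratio of 0.16. Its other probe sets read 136 against 132 and 115 against 102, below the floor. In all 3 probe sets the allograft value was the higher, by 1.12-fold in the one above the floor. Pax5, which holds cells in the B lineage, read 19.3 against 37.0, below the floor on both arrays.

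**Figure D2:**
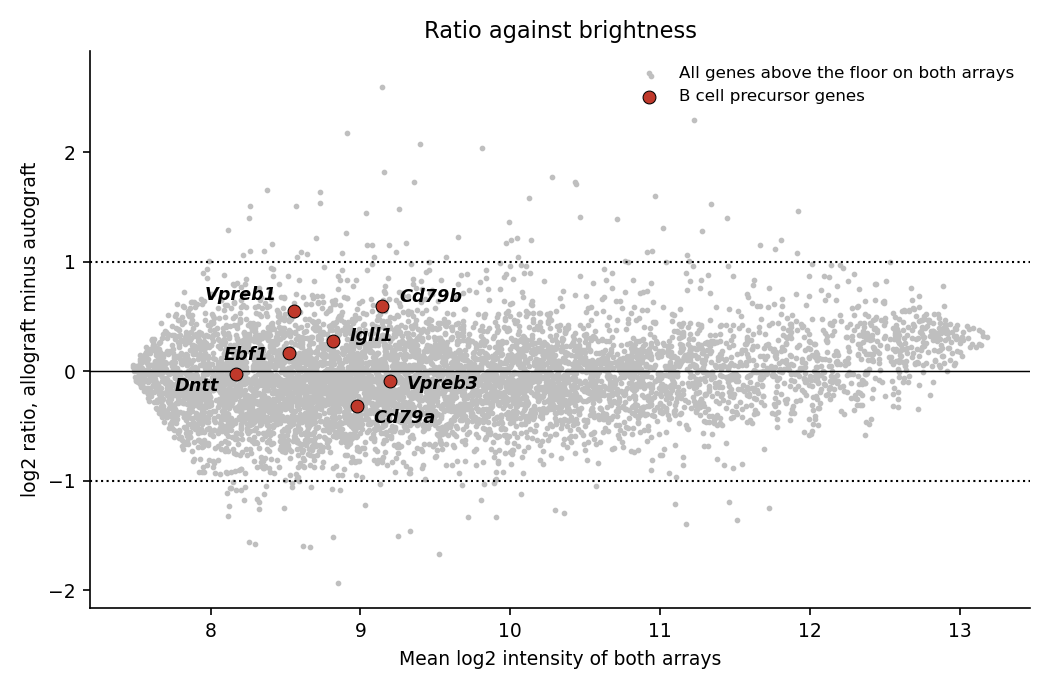
Log2 ratio of allograft over autograft against the mean log2 intensity of both arrays, for 7101 genes above the floor on both arrays (grey, with values below the floor not drawn) and the 7 B cell precursor genes among them (red); dotted lines mark a 2-fold difference. The 7 genes lie between -0.32 and 0.60, inside the cloud of genes of like brightness.

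Set beside all genes, the 7 ratios had a median of 0.16 and ran from -0.32 for Cd79a to 0.60 for Cd79b. All 7101 genes past the floor on both arrays had a median of -0.07, an SD across genes of 0.38, and a central 95% from -0.76 to 0.71. Cd79b stood at percentile 96.0 and Vpreb1 at percentile 95.3 of these genes, Igll1 at 83.6, Ebf1 at 75, Dntt at 55.0, Vpreb3 at 47.5 and Cd79a at 22.1. When each member was set among 355 genes of like brightness, 1 of 20 bins, 0 of the 7 fell outside the central 95% of its bin. Vpreb1 came nearest to an edge, at 0.55 where its bin ended at 0.62. Rescaling the arrays moved the members together: after the trend of the ratio with brightness was removed by a lowess fit, the median of the 7 was 0.28 and Vpreb1 stood at 0.67 and Cd79b at 0.68.

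Other genes on which B cell precursors depend were read from 5 lists that together hold 71 genes, 61 of them with a probe set. At least 1 array put 46 of these above the floor, with 25 ratios above 0 and 21 below it and a median of 0.03. Past 2-fold were 2 genes, both higher in the allograft sample, Hmgb2 and Myb, and 0 were lower. Over all genes above the floor on at least 1 array the median was -0.08, with 40.4% of ratios above 0. Of all these genes 1.62% were past 2-fold, 68 higher and 59 lower in the allograft sample.

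Among 16 early lymphoid transcription factors with a probe set, 12 were above the floor, with 6 ratios on each side of 0 and a median of 0.18. Myb, a factor of blood progenitors of many lineages, read 508 in the allograft and 227 in the autograft sample, a log2 ratio of 1.16, by a probe set with the suffix for shared oligonucleotides; its other probe sets were below the floor. Pou2af1, the B cell coactivator of octamer factors, read 433 against 262.5, a log2 ratio of 0.72. At the other end, Spi1, the PU.1 factor of myeloid and early lymphoid cells, read 529 against 866, a log2 ratio of -0.71, and Cbfb, the partner of the Runx factors, stood at -0.29. Members of this list thus lay on both sides, with the B cell coactivator above 0 and PU.1 below it.

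Of 13 genes with a probe set for the receptors and signals that support precursors, 10 were above the floor, with a median of -0.07 and 0 past 2-fold. Il7r, the interleukin 7 receptor that mouse B cell precursors need to grow, read 613 against 602.5, a log2 ratio of 0.02. Stat5a, which relays its signal, stood at 0.14, and Jak3, the kinase of the shared receptor chain, at -0.38. Jak1 stood at -0.34 by its brightest probe set and at 0.51 by the next, so its direction was not settled by these arrays. Kit, the stem cell factor receptor, exceeded the floor in the allograft alone, at 194 against 165, at least 1.11-fold.

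Of 9 V(D)J joining and repair genes with a probe set, 4 were above the floor. Hmgb2, a DNA-bending protein that assists the recombinase and is also abundant in dividing cells of other lineages, read 751 in the allograft and 241 in the autograft sample, a log2 ratio of 1.64, and 0.77 in its second probe set. Xrcc6, the Ku70 end-binding protein, stood at 0.07 and Xrcc4, a ligation factor, at -0.47. Prkdc, the DNA-dependent protein kinase, was above the floor in the autograft alone, at 154 against 306, at least 1.75-fold higher there. The 4 ratios did not share a direction.

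In the pre-B and B cell receptor cascade 13 of 15 genes with a probe set were above the floor, 8 of them with a ratio above 0, with a median of 0.06 and 0 past 2-fold. Blnk, the adaptor that links the receptor to its downstream enzymes, was nearly the same on both arrays, at 705 against 707. Cd72, an inhibitory coreceptor of B cells, had the highest ratio of the list at 0.62 (558 against 364), and Fyn, a Src family kinase, the lowest at -0.41, with -0.43 in its second probe set. Dapp1, an adaptor of B cells, exceeded the floor in the allograft alone, at least 1.41-fold higher, and Pik3cd, a catalytic subunit of phosphoinositide 3-kinase, stood at -0.33. Of the surface markers of precursors, 7 of 8 were above the floor, with a median of 0.21: Ptprc, the B220 and CD45 protein of all white cells, was highest at 0.72, Ly6d, a marker of B lineage commitment, stood at 0.45, Cd93, an immature B cell and progenitor protein, at -0.33, and Mme, the CD10 peptidase, lowest at -0.36.

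**Figure D3:**
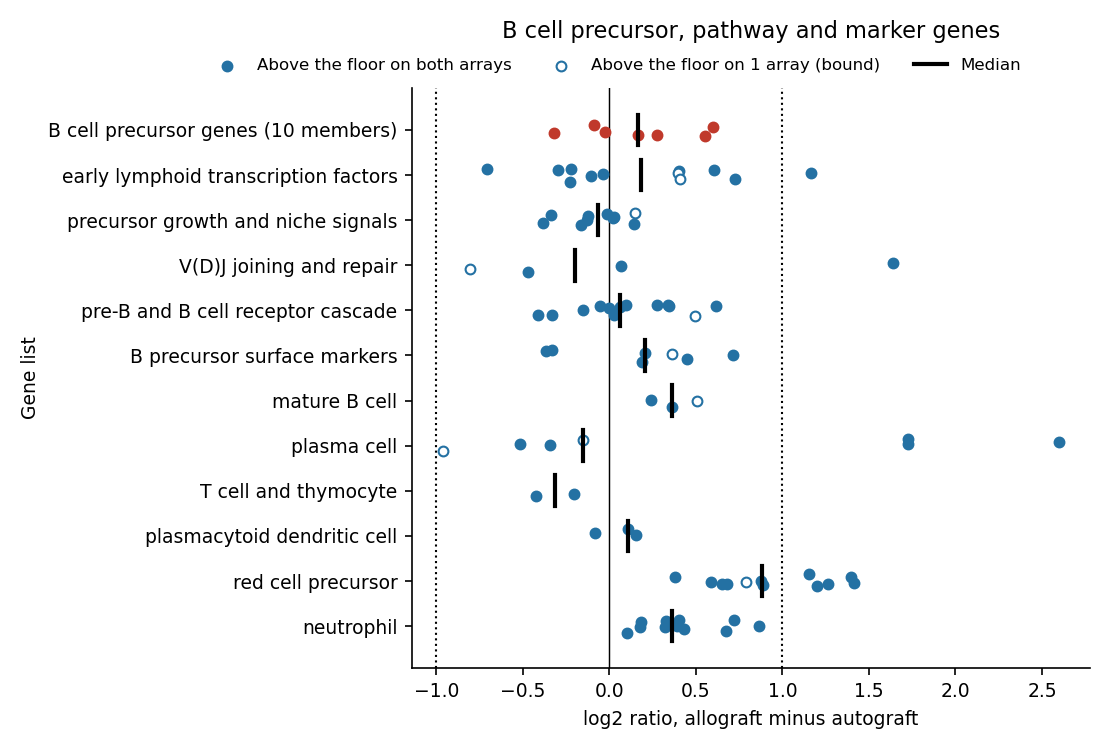
Log2 ratios of allograft over autograft of genes above the floor on both arrays (filled) or on 1 array (open, a bound) for the 10 B cell precursor genes, the 5 pathway lists and 6 marker lists of other cells; black bars are medians and dotted lines mark a 2-fold difference. The B cell precursor genes spread on both sides of 0 around a median of 0.16, while all 12 red cell precursor genes, each drawn by its brightest probe set, lie above 0.

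Markers of other cells that the femur samples could hold were read on the same arrays, and their part in the B cell precursor values was not tested. Of the mature B cell markers with a probe set 3 of 8 were above the floor, all 3 with a ratio above 0: Ms4a1, the CD20 protein, read 235.5 against 183, a log2 ratio of 0.36, Cd37 stood at 0.24, and Tnfrsf13c, the BAFF receptor, exceeded the floor in the allograft alone, at least 1.42-fold higher. Together the 8 summed to an intensity of 1294 on the allograft and 1150.3 on the autograft array. Among plasma cell genes 7 of 8 were above the floor, with 3 ratios above 0, 4 below it and a median of -0.15. Past 2-fold were 3, all higher in the allograft sample, against 1.62% of all genes above the floor on at least 1 array. The 8 genes summed to 9125 on the allograft and 6783 on the autograft array. Iglv1, a light chain gene read by a probe set with the suffix for shared oligonucleotides, was highest at 2.60, then Jchain at 1.72. Sdc1, the plasma cell surface protein CD138, stood at -0.52 by its brightest probe set, at -0.30 by the next and at 0.26 by a dimmer one. Prdm1, the plasma cell regulator, was above the floor in the autograft alone, at least 1.95-fold higher there.

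Rag1, Rag2 and Dntt are also used by thymocytes, and 10 of 12 T cell and thymocyte markers with a probe set were below the floor on both arrays. These included Cd3e (35.2 against 99.9) and Ptcra, the pre-T cell receptor chain (80.8 against 148.5). Of all 12393 genes, 7833 were above the floor on at least 1 array. Together the 12 summed to 1345 on the allograft and 1727 on the autograft array, and the genes above the floor were Zap70 and Lat, signalling proteins of T cells, at -0.20 and -0.43. Plasmacytoid dendritic cell markers had 3 of 5 above the floor, Tcf4 at 0.10 by its brightest probe set and between -0.37 and 0.05 by 4 others above the floor on 1 or both arrays, Irf7 at -0.08 and Bst2 at 0.15, and summed to 2857 and 2737.5.

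Red cell precursor and neutrophil genes were read on the same arrays. By the brightest probe set of each gene, all 12 red cell precursor genes had a ratio above 0, with a median of 0.88. Past 2-fold were 5 of the 12, against 1.62% of all genes above the floor on at least 1 array. The 12 genes summed to 27834 in the allograft and 15355.5 in the autograft sample. Hemgn, a nuclear protein of red cell precursors, stood at 1.41 and Ermap, a membrane protein, at 1.39. Lowest were Tfrc, the transferrin receptor, at 0.38 and Ank1, an ankyrin of the membrane skeleton, at 0.59, with a second Ank1 probe set at -0.16. By the same choice of probe set all 12 neutrophil genes were above 0, with a median of 0.36, 0 past 2-fold, and sums of 61473 and 48040.2. Mpo, myeloperoxidase, stood at 0.86, the granule protease gene Ctsg at 0.72 and S100a8, a calcium-binding protein, at 0.18. Mmp9, a gelatinase, stood at 0.10 by its brightest probe set and at -0.35 by the next. These values stand beside those of the B cell precursor genes as readings of the same samples, and the difference between the lists was not tested. Among the control probe sets for RNA quality, the 3' one of beta-actin was 1.77 times as bright as the 5' one on the allograft array. On the autograft array it was 1.19 times as bright. The same quotient for Gapdh was 0.194 and 0.0349, so its 3' probe set was the dimmer on both arrays. For both controls the quotient was higher on the allograft than on the autograft array. Within each array the 3' probe set was the brighter for beta-actin and the dimmer for Gapdh, which gave no single reading of RNA quality. The part of RNA quality in the B cell precursor values was not tested.

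**Figure D4:**
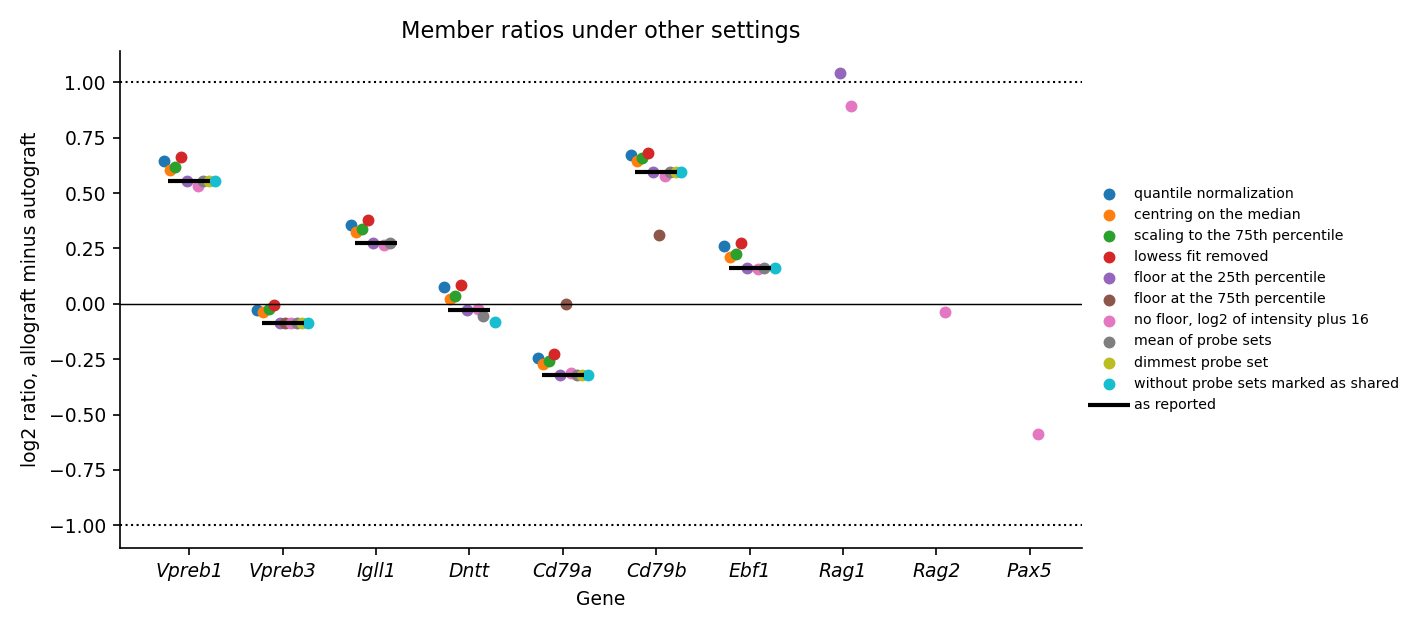
Log2 ratio of allograft over autograft of each B cell precursor gene as reported (black bar) and under the alternative settings that gave it a value (points), with dotted lines at a 2-fold difference. Vpreb1, Igll1, Cd79b and Ebf1 stay above 0 and Cd79a and Vpreb3 below it in every setting drawn, though only rescaling the arrays could have moved these genes across 0. Dntt crosses 0, and Rag1, Rag2 and Pax5 have values where the floor was lowered or removed.

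The directions of 6 of the 7 measured genes held in every alternative setting that gave a ratio, but most settings could not have changed them. Raising, lowering or removing the floor cannot reverse a sign. Each of the 6 genes had a single probe set above the floor of 175, so other choices of probe set repeated its ratio or gave none. Only rescaling the arrays could have reversed these directions, and all 6 held under it. Vpreb1 lay between 0.53 and 0.67, Igll1 between 0.26 and 0.38, Ebf1 between 0.16 and 0.28 and Cd79b between 0.31 and 0.68. Cd79a lay between -0.32 and -0.0015 and Vpreb3 between -0.09 and -0.0050. The value of -0.0015 arose where the allograft reading of Cd79a, 449.8, was set to the floor of 561.5. That of -0.0050 came from the lowess fit. Dntt was the exception given above. Without a floor, on a scale of log2 of intensity plus 16, the members below the floor had ratios of 0.90 for Rag1, -0.04 for Rag2 and -0.59 for Pax5, values read at intensities where neither array stands clear of the dim range.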

How the data were processed

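The authors deposited 1 intensity per probe set and array on a linear scale, for 22690 probe sets on 2 arrays. How the background was corrected and the arrays scaled, and with what software, was not given in the sources used here. The 2% trimmed means were 500.2 and 500.1, so the values were used as deposited.

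Samples were grouped by title. Control probe sets (64) were left out. Gene names came from the platform annotation, and the Entrez identifiers of all 15 member probe sets matched RefSeq (GRCm38.p6) with the same symbol. Values below 175 (the median) were set to it and log2 was taken. A gene was represented by its probe set of highest mean intensity, and a gene above the floor on 1 array has a bound. Genes named are all members, plus the 2 highest and 2 lowest of each other list and a few defining markers. The members and lists were chosen with earlier results of these data known. Differences were counted at 2-fold, without a test, and the counting step was tested on simulated data. The simulation planted 4-fold changes in probe sets with a mean above 1000. All members were dimmer, so it does not show how 2-fold counts behave in their range. Values were computed in Python 3.11.15 with pandas 2.3.3 and numpy 2.4.6, the lowess fit with statsmodels 0.14.6, trimmed means with scipy 1.17.1, and plots with matplotlib 3.10.9.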

Additional observations from a re-analysis of the deposited data

How the results depend on the processing

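Of 12 alternative settings, 10 left the count of B cell precursor genes past 2-fold at 0. Among them, the 4-fold threshold and the floor at the 75th percentile could not have raised the count, so their outcome was fixed in advance. The count was 1 when the floor was lowered to the 25th percentile (Rag1), where 3.62% of all genes above that floor were past 2-fold. It was also 1 at a 1.5-fold threshold (Cd79b), which 10.6% of all genes passed. The median of the measured members was 0.28 after the lowess fit, -0.0015 when the floor was raised to the 75th percentile, which left 3 members (Vpreb3, Cd79a and Cd79b), and 0.039 without probe sets marked as shared, which was added after seeing the data; the last setting removes the Igll1 value. The other 7 settings moved the median by at most 0.1. Over all genes, 127 were past 2-fold as reported, against 386 with the lower and 50 with the higher floor, 664 without a floor, 827 at 1.5-fold and 6 at 4-fold. The share of 2-fold differences that were higher in the allograft sample was 53.5% as reported and 63.6% to 68.6% under the 4 scaling alternatives, but 37.8% with the lower floor and 35.5% without a floor, so that most differences were then lower. No paired analysis was possible because each graft type has 1 array. Signal over background limits the values of Rag1, Rag2 and Pax5.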
